A study of Mus musculus with 12 samples.

Results

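The genes described here are 9 members of the TGF-beta pathway, of 48526 genes in the count table, and all 9 were among the 15523 genes with enough counts to be tested. They are the ligand genes Gdf3, Gdf15, Inhba and Tgfb1, the receptor genes Tgfbr1 and Tgfbr2, the intracellular Smad3 and Smad7, and Tgfbi, which encodes a secreted matrix protein named for its induction by TGF-beta. They were chosen by gene symbol, from a list drawn up with earlier results of these libraries known. Gdf3 also belongs to the set of changed genes that the study selected on the difference between KO and WT after LPS in these same libraries, so that difference is given for Gdf3 as a description with no test. Which measured values brought in the other 8 genes is not recorded, and their adjusted p-values are the output of a fit over all genes, not independent support.

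The libraries were made from total RNA of BMDMs (bone marrow-derived macrophages), cells grown from mouse bone marrow over 6 d in medium conditioned by L929 cells. The KO cells came from mice homozygous for a deletion of HSS9, an enhancer upstream of Tnf, and the WT cells from HSS9+/+ mice, which the labels call littermates. The methods of the study name purchased C57BL/6 mice and KO mice bred from homozygous pairs, and do not say which mice gave these WT cells. A shared background of the genotypes is therefore not assured. The mice were males of 7 to 10 weeks. There were 4 groups of 3 libraries each, namely WT and KO cells given PBS (UT) and WT and KO cells given LPS (lipopolysaccharide, part of the wall of Gram-negative bacteria) for 6 hr. The LPS dose is not in the labels, and nothing says whether the 3 libraries of a group came from separate mice, so the p-values measure the spread between these libraries, which may be technical.

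TGF-beta superfamily ligands are secreted dimers that bring together type I and type II receptor kinases on the cell surface. TGF-beta and activins signal through Smad2 and Smad3, bone morphogenetic proteins mostly through other Smads, and the inhibitory Smads limit both branches. TGF-beta is released in a latent form that needs activation, often by integrins, and in macrophages it is best known for restraining inflammatory responses, whereas activin A, the dimer made from Inhba, is produced by activated macrophages.

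Library totals ranged from 26154533 to 36423921 counts. All 9 macrophage markers examined were measured, at a summed CPM (counts scaled to a common library size) of 29041 to 30114 in WT UT, 33460 to 34557 in KO UT, 27977 to 29520 in WT LPS and 30297 to 32158 in KO LPS. This sum, most of which was Lyz2, was higher in KO in both treatments without overlap. After LPS 6 of the 9 were higher in KO and 0 lower at an adjusted p below 0.05 and any fold change, against 7.78% and 6.54% of all genes, and in UT cells 5 were higher and 1, Csf1r, lower (-0.13, adjusted p = 0.0491), against 14.1% and 9.69%. The neutrophil marker Ly6g was at 0 counts in all 12. The summed level of all 8 neutrophil markers was 20.5 to 22.0 CPM in WT UT, 42.6 to 48.1 in KO UT, 50.5 to 79.6 in WT LPS and 67.3 to 76.8 in KO LPS, so it moved with genotype in UT cells, and 4 of the 6 that could be tested were higher in KO there. After LPS 1 of these 6, S100a9, was higher in KO (0.76, adjusted p = 0.000936) and 0 were lower. The 5 endothelial markers did not move together. Their sum, nearly all of it Kdr, was lower in KO, at 24.2 to 27.4 against 35.5 to 38.6 CPM in UT cells and at 85.5 to 94.1 against 100.4 to 124.9 CPM after LPS. Pecam1 was higher in KO in UT cells (0.73, adjusted p = 0.0355) and stood at -0.56 after LPS (adjusted p = 0.0581), Cdh5 stood at -0.19 and 0.28 (adjusted p = 0.898 and 0.741), and Tek and Emcn were at 0 to 4 counts in every library. The part of macrophage content and of other cells in the genotype differences given here was not tested. Tnf, the gene downstream of the deletion, was lower in KO than in WT by 1.04 on the log2 scale after LPS (SE 0.060, given without a test since the study selected it on that difference too) and by 0.66 in UT cells (SE 0.073, adjusted p = 1.29e-06, edgeR's quasi-likelihood test), with no overlap between the libraries. Small structured RNAs took 4.30 to 4.48% of counts in WT UT and 8.04 to 9.14% in KO UT libraries, and 4.97, 6.25 and 7.71% in the 3 WT LPS libraries against 4.33 to 4.43% in KO LPS libraries, so this share moved with genotype in both treatments.

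A gene was called changed at an adjusted p under 0.05 together with a log2 fold change beyond 1 in either direction. The 4 comparisons within a genotype or treatment share libraries, and their values are given side by side. Between KO and WT after LPS, Gdf3 is left out of the counts because the study selected it on that difference. Of the other 8 members 2 were called, Gdf15 and Inhba, both lower in KO, against 0.664% of all genes called lower and 0.586% called higher. At an adjusted p below 0.05 and any fold change, 2 of the 8 were lower and 3 higher, against 6.54% and 7.78% of all genes. In UT cells 1 member, Gdf3, was called lower, against 0.799% of all genes called lower and 1.02% higher, and at any fold change 2 were lower and 1 higher, against 9.69% and 14.1%. RLE scaling turned the balance of all calls in UT cells from 159 higher and 124 lower to 134 higher and 168 lower.

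**Figure D1:**
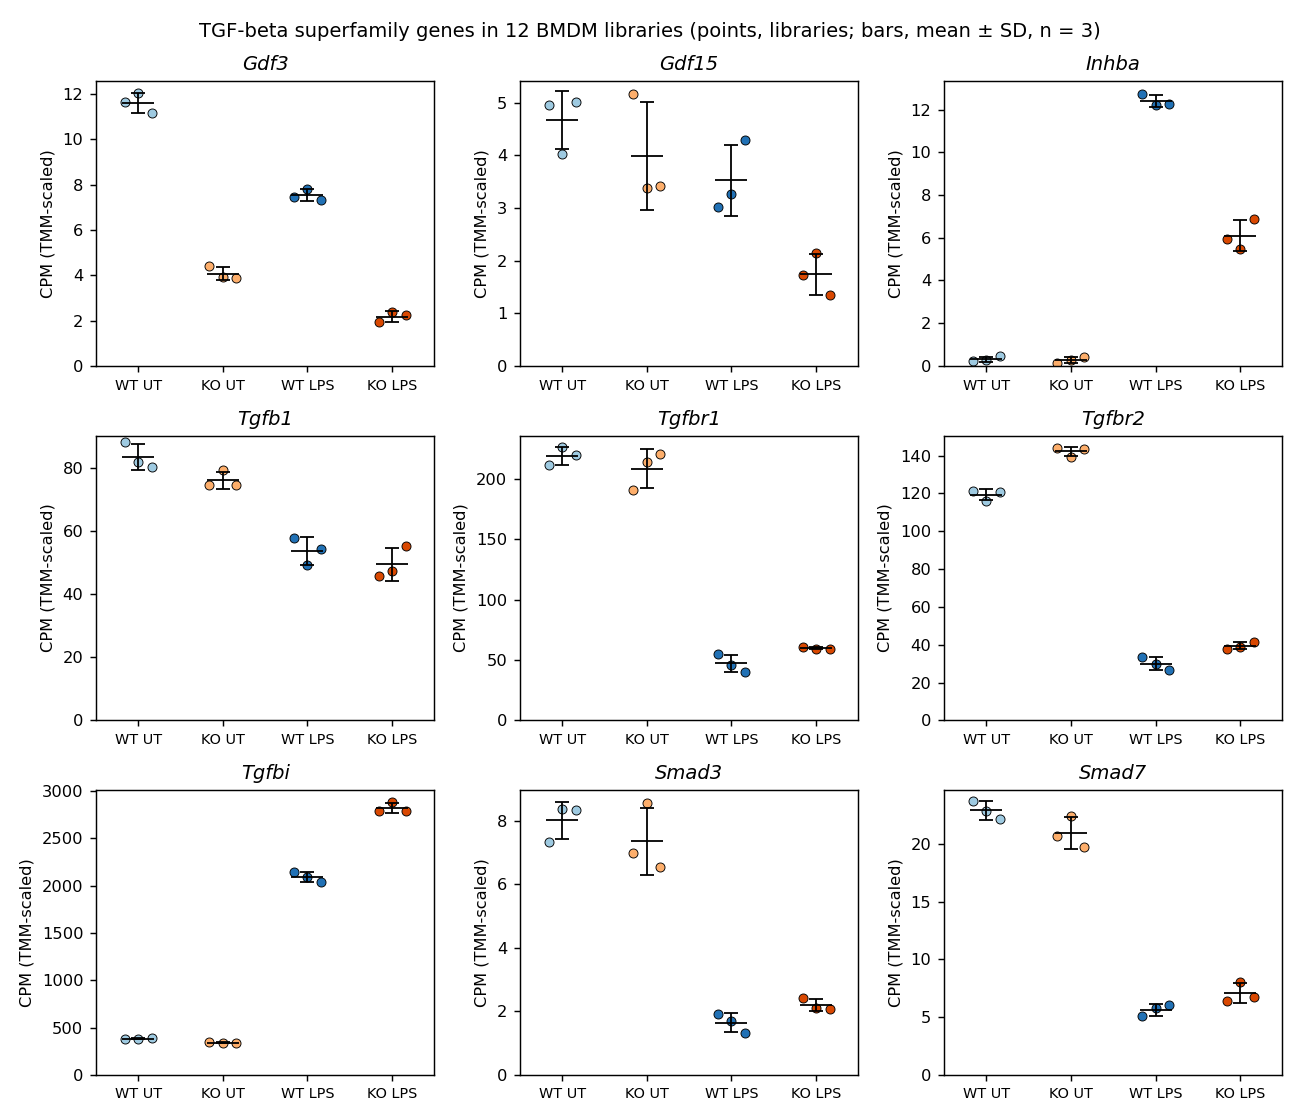
CPM (TMM-scaled) of the 9 genes in the 12 libraries, with points for libraries and bars for mean ± SD (n = 3) of each group. Gdf3 was lower in KO with and without LPS, the 6 LPS libraries of Inhba and Tgfbi lay above all UT libraries, and those of Tgfbr1, Tgfbr2, Smad3 and Smad7 lay below them.

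Of the ligands, Gdf3, a growth differentiation factor related to nodal, was the member that differed most between genotypes. The gene lies on the minus strand of chromosome 6, from 122605403 to 122610087 (GRCm38), and is identified as ENSMUSG00000030117.5. It stood at 11.6, 12 and 11.2 CPM in the WT UT libraries, at 4.40, 3.94 and 3.87 CPM in KO UT, at 7.45, 7.81 and 7.31 CPM in WT LPS and at 1.92, 2.37 and 2.23 CPM in KO LPS. The order of the groups was therefore WT UT, WT LPS, KO UT and KO LPS, and no group overlapped its neighbour. In UT cells, whose libraries the study did not use to select Gdf3, the level in KO was 2.86-fold lower (log2 fold change -1.51, SE 0.11, adjusted p = 3.38e-09). After LPS it was 3.46-fold lower in KO (log2 fold change -1.79, 95% interval -2.07 to -1.51). Within batches, which the labels number 1 to 3, the log2 difference after LPS was -1.93, -1.70 and -1.68, and in UT cells -1.39, -1.60 and -1.51. LPS lowered Gdf3 by 0.63 in WT and by 0.90 in KO (log2 scale), neither past the fold minimum. These effects are given without a test, since the LPS libraries entered the study's selection of Gdf3. The difference between these LPS effects was -0.28, with a 95% interval of -0.64 to 0.09, also a description only. In bulk RNA, fewer cells that express a gene and less RNA per cell cannot be told apart.

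The 5 genes whose log2 CPM over the 12 libraries followed Gdf3 most closely, among 9588 tested genes with a mean of at least 5 CPM, were Gm14548 (Pearson r = 0.974), Pira2 (r = 0.968), Plxdc2 (r = 0.954), Slc38a7 (r = 0.953) and Itgb7 (r = 0.946). These values describe 12 libraries that fall into 4 groups, and the genes share the libraries and their depth. Pira2, a paired immunoglobulin-like receptor gene, averaged 23.1 ± 0.306 CPM in WT UT (SD, n = 3) and 1.95 ± 0.593 CPM in KO UT, then 13.9 ± 1.16 in WT LPS and 0.837 ± 0.269 in KO LPS. Its counts are uncertain because this family holds near-identical copies that the counting could split, and Gm14548 is given with the same reserve. Itgb7, an integrin subunit gene, averaged 160 ± 3.95 CPM in WT UT and 88.3 ± 6.16 in KO UT, and 144 ± 1.68 in WT LPS and 83.8 ± 2.95 in KO LPS. Plxdc2, a plexin domain protein gene, was at 151 ± 3.01 CPM in WT UT and 84.8 ± 3.00 in KO UT, and at 92.4 ± 4.99 in WT LPS and 52.6 ± 2.34 in KO LPS. All 5 genes, like Gdf3, were lower in KO than in WT in both treatments, with no overlap between the libraries. They were picked for following Gdf3 over these same libraries, where it was lower in KO, so this describes the choice and is no separate result. Of the other members, Gdf15 followed Gdf3 at r = 0.80 and the rest at between -0.46 and 0.57.

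Gdf15, a stress-induced and distant member of the family that circulates as a hormone, was lower in KO after LPS, and its call rested on single libraries. It lies on chromosome 8 (ENSMUSG00000038508.7, minus strand, 70629393 to 70632456). The WT UT libraries held 4.96, 4.04 and 5.02 CPM, the KO UT libraries 5.18, 3.38 and 3.41, the WT LPS libraries 3.02, 3.28 and 4.29, and the KO LPS libraries 1.72, 2.14 and 1.35. The KO LPS group lay below all other libraries, while WT UT, KO UT and WT LPS overlapped. The difference after LPS was 2.02-fold (log2 fold change -1.01, SE 0.229, adjusted p = 0.00515), close to the fold minimum. It was -0.85 without WT LPS replicate 3 and -0.86 without KO LPS replicate 3 (adjusted p = 0.0263 and 0.0367), and within batches it was -0.79, -0.60 and -1.62. With the share of small RNAs as a covariate it was -0.52 (adjusted p = 0.394). In UT cells the log2 difference was -0.23, with a 95% interval of -0.62 to 0.16 (adjusted p = 0.421). LPS lowered Gdf15 in KO by 1.19 (SE 0.218, adjusted p = 4.55e-05). That value was -0.96 without KO UT replicate 1 and -0.22 with the small RNA covariate (adjusted p = 0.775). In WT the LPS effect was -0.41 (adjusted p = 0.0653), or -0.46 by DESeq2 (adjusted p = 0.0428), and the difference between the genotypes' LPS effects was -0.78 (95% interval -1.40 to -0.17, adjusted p = 0.0768). With the small RNA covariate that difference turned to 0.69 (adjusted p = 0.767).

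Inhba, which encodes the subunit of activin A, rose most with LPS among the 9 genes and reached a lower level in KO. It lies on the plus strand of chromosome 13 (ENSMUSG00000041324.13, 16011851 to 16031621). A pair of annotated antisense genes overlap it without sharing exon bases, and neither is in the count table. The raw counts were 10, 12 and 21 in WT UT and 5, 9 and 16 in KO UT, against 341, 272 and 260 in WT LPS and 155, 146 and 188 in KO LPS. Scaled, these were 0.234, 0.265 and 0.447 CPM, then 0.145, 0.264 and 0.405, then 12.7, 12.2 and 12.3, and last 5.94, 5.48 and 6.88. The UT groups overlapped and lay below both LPS groups, which were apart from each other. LPS raised Inhba 38.6-fold in WT (log2 fold change 5.27, SE 0.219, adjusted p = 2.31e-15) and 21.8-fold in KO (log2 fold change 4.44, SE 0.244, adjusted p = 3.52e-13). The difference between these effects was -0.82 (95% interval -1.68 to 0.03, adjusted p = 0.188), and the UT side of it rests on 5 to 21 counts a library. After LPS the level in KO was 2.03-fold lower (log2 fold change -1.02, SE 0.158, adjusted p = 0.000176). The within-batch differences were -1.09, -1.15 and -0.83, and without KO LPS replicate 2 the value was -0.95 (adjusted p = 0.00228), under the fold minimum. In UT cells the log2 difference was -0.20, with a 95% interval of -0.96 to 0.56 (adjusted p = 0.752).

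Tgfb1, the gene of the founding ligand, was the most expressed of the 4 ligand genes per length of exon. It lies on chromosome 7 (ENSMUSG00000002603.15, plus strand, 25687002 to 25705077). The libraries held 88.0, 81.7 and 80.2 CPM in WT UT, 74.4, 79.3 and 74.4 CPM in KO UT, 57.9, 49.1 and 54.3 CPM in WT LPS, and 45.7, 47.2 and 55.2 CPM in KO LPS. The LPS groups of both genotypes overlapped, and the WT UT libraries lay just above the KO UT libraries. LPS lowered Tgfb1 by 0.63 on the log2 scale in WT (SE 0.072, adjusted p = 7.44e-08) and by 0.62 in KO (SE 0.072, adjusted p = 1.03e-07). The difference between genotypes was -0.12 after LPS (95% interval -0.28 to 0.03, adjusted p = 0.296). In UT cells it was -0.13 (95% interval -0.28 to 0.01, adjusted p = 0.189), and DESeq2 and RLE scaling both gave -0.21, with adjusted p-values of 0.0282 and 0.0325.

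The genotype differences of all 9 genes, with their intervals, are plotted for both treatments.

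**Figure D2:**
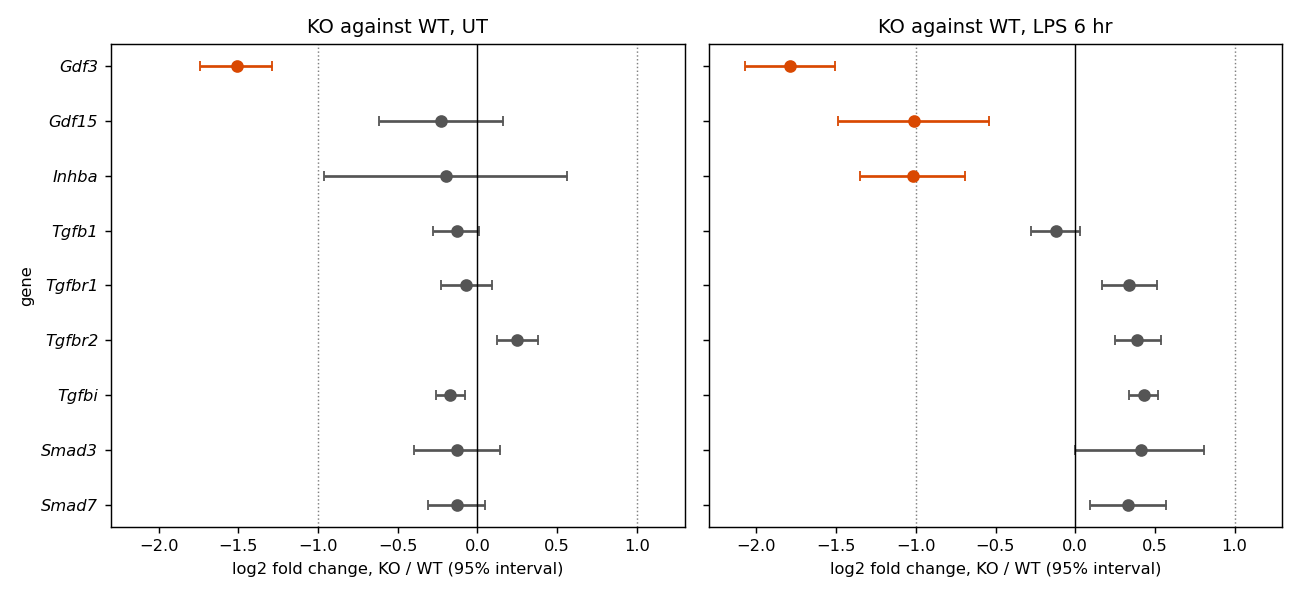
Log2 fold change of KO over WT in UT cells (left) and after LPS for 6 hr (right), with 95% intervals from edgeR. Orange marks genes called changed and dotted lines the fold minimum. Gdf3 lay beyond -1 in both panels, but the study selected it on the difference in the right panel, where its colour is no test. After LPS, Gdf15 and Inhba lay at -1.01 and -1.02, and Tgfbr1, Tgfbr2, Tgfbi, Smad3 and Smad7 between 0.33 and 0.43.

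The receptor genes Tgfbr1 and Tgfbr2, which encode the type I and type II TGF-beta receptors, both fell with LPS. Tgfbr1 (ENSMUSG00000007613.15) lies on chromosome 4 from 47353222 to 47414931 on the plus strand, and Tgfbr2 (ENSMUSG00000032440.12) on chromosome 9 from 116084293 to 116175360 on the minus strand. In response to LPS 6 of the 9 members were called in WT and 7 in KO. In WT 2 were higher and 4 lower, against 19.1% and 18.7% of all genes, and in KO 2 were higher and 5 lower, against 17.7% and 19.3%.

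Tgfbr1 stood at 211, 226 and 220 CPM in WT UT and at 191, 214 and 221 CPM in KO UT, and after LPS at 54.8, 46.1 and 40.4 CPM in WT and at 60.9, 58.9 and 59.3 CPM in KO. The UT groups overlapped, and the KO LPS libraries lay above the WT LPS libraries. LPS lowered it 4.64-fold in WT (log2 fold change -2.21, SE 0.083, adjusted p = 3.87e-16) and 3.49-fold in KO (-1.80, SE 0.081, adjusted p = 1.07e-14). These effects differed by 0.41 (SE 0.113, adjusted p = 0.0159). After LPS, Tgfbr1 was higher in KO by 0.34 (SE 0.083, adjusted p = 0.00906), and within batches by 0.15, 0.36 and 0.55. The WT LPS libraries, from the highest to the lowest level, were those with 4.97, 6.25 and 7.71% small RNAs. With that share as a covariate the difference after LPS was -0.00 (adjusted p = 0.993), that in UT cells went from -0.07 (95% interval -0.23 to 0.09) to 0.64 (adjusted p = 0.00471), and the difference between the LPS effects turned to -0.64 (adjusted p = 0.105).

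Tgfbr2 stood at 121, 116 and 121 CPM in WT UT, at 144, 139 and 143 CPM in KO UT, at 33.4, 29.9 and 26.4 CPM in WT LPS and at 37.8, 38.9 and 41.4 CPM in KO LPS. None of the 4 groups overlapped, and KO was the higher genotype in both treatments. LPS lowered Tgfbr2 3.98-fold in WT (log2 fold change -1.99, SE 0.069, adjusted p = 8.86e-17) and 3.61-fold in KO (-1.85, SE 0.067, adjusted p = 2.11e-16). These effects differed by 0.14 (95% interval -0.06 to 0.34, adjusted p = 0.347), and by -0.54 with the small RNA covariate (adjusted p = 0.216). Between genotypes it was higher in KO by 0.25 in UT cells (SE 0.063, adjusted p = 0.00493) and by 0.39 after LPS (SE 0.071, adjusted p = 0.000761). The latter became 0.17 with the small RNA covariate (adjusted p = 0.242). Within batches the UT difference was 0.25, 0.26 and 0.24, and the difference after LPS 0.18, 0.38 and 0.65.

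Promoter sequence is shown for Inhba and Gdf15, the ligand genes called changed by LPS in at least 1 genotype, and for Tgfbr1 and Tgfbr2, the receptor pair that fell together. Each line holds the 250 bases before the start site, 5′ to 3′ on the gene's strand, from RefSeq (GRCm38.p6), and capitals mark matches to the motifs searched. These were the TATA box (TATAAA), the AP-1 site (TGANTCA), the GC box (GGGCGG), the SMAD element (CAGACA) and the kappaB consensus, each on both strands. RefSeq promoter windows of 7 of the 9 members were used.
Inhba, chr13:16011601-16011850, plus strand: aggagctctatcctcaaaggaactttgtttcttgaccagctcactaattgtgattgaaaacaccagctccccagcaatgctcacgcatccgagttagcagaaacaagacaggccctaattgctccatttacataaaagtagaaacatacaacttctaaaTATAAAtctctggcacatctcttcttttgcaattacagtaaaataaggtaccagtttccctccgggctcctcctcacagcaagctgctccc
Gdf15, chr8:70632457-70632706, minus strand: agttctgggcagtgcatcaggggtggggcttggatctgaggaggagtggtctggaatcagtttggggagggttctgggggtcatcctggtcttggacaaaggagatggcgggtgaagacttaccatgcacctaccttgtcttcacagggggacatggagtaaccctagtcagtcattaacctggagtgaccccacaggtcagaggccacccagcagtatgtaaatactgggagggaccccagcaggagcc
Tgfbr1, chr4:47352972-47353221, plus strand: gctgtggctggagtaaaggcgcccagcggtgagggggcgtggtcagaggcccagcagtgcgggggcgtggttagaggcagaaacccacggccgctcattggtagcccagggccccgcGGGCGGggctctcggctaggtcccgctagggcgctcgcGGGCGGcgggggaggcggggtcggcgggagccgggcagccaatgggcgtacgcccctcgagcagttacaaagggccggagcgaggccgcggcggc
Tgfbr2, chr9:116175364-116175613, minus strand: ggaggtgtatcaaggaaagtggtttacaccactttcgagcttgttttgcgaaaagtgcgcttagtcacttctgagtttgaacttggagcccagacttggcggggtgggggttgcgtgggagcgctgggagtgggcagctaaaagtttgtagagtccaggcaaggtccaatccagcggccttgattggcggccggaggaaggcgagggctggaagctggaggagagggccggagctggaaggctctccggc
The Inhba window held a TATA box that began 91 bases before the start, a motif found in 12.4% of 32841 mouse promoter windows of this length, and had a GC content of 43.2%, against a median of 52.4% over all windows. The Tgfbr1 window held 2 GC boxes, 95 and 133 bases before the start, a motif found in 32.7% of windows. Its GC content was 74.8%, and 95.8% of windows had less. Although Tgfbr1 and Tgfbr2 fell by similar folds, the Tgfbr2 window held no match to the 5 motifs, at a GC content of 58.4%, and neither did that of Gdf15, at 56.4%. The AP-1 site, the kappaB consensus and the SMAD element were present in 6.75%, 7.25% and 17.1% of all windows and in none of these 4, which says only that these letters are not in these windows. Among the windows not printed, that of Tgfb1 held 5 GC boxes and a kappaB consensus match 140 bases before the start, and those of Smad3 and Tgfbi held 2 and 1 GC boxes.

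Smad3 and Smad7 also fell with LPS. Smad3, whose protein carries the signal of TGF-beta and activin to the nucleus, lies on chromosome 9 (ENSMUSG00000032402.12, minus strand, 63646767 to 63757994). It stood at 7.32, 8.36 and 8.34 CPM in WT UT, at 6.97, 8.55 and 6.52 CPM in KO UT, at 1.90, 1.71 and 1.32 CPM in WT LPS and at 2.41, 2.1 and 2.09 CPM in KO LPS. The UT groups overlapped, and the KO LPS libraries lay above the WT LPS libraries. LPS lowered Smad3 4.82-fold in WT (log2 fold change -2.27, SE 0.164, adjusted p = 4.24e-11) and 3.33-fold in KO (-1.74, SE 0.155, adjusted p = 1.61e-09). These effects differed by 0.53 (95% interval 0.05 to 1.02, adjusted p = 0.13), and by -0.06 with the small RNA covariate (adjusted p = 0.992). The difference between genotypes after LPS was 0.41, with a 95% interval of 0.00 to 0.81, and did not pass the adjusted test (adjusted p = 0.174).

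Smad7, the inhibitory Smad that TGF-beta itself induces as a feedback brake, lies on chromosome 18 (ENSMUSG00000025880.11, plus strand, 75367529 to 75395935). Its libraries held 23.7, 22.8 and 22.1 CPM in WT UT, 20.7, 22.4 and 19.7 CPM in KO UT, 5.07, 5.79 and 6.03 CPM in WT LPS, and 6.36, 8.03 and 6.77 CPM in KO LPS. The UT groups overlapped and the LPS groups did not. LPS lowered Smad7 4.08-fold in WT (log2 fold change -2.03, SE 0.101, adjusted p = 6.35e-14) and 2.96-fold in KO (-1.57, SE 0.097, adjusted p = 2.99e-12). These effects differed by 0.46 (SE 0.142, adjusted p = 0.0296), and in 7 of the 12 fits that each left out 1 library the adjusted p was 0.0501 to 0.1, with the lowest value, 0.36, without KO LPS replicate 2. After LPS the level in KO was 0.33 above that in WT on the log2 scale (95% interval 0.09 to 0.57, adjusted p = 0.0569), with 0.32, 0.47 and 0.16 within batches. DESeq2 gave 0.34 with an adjusted p of 0.0444.

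Tgfbi, the matrix protein gene, was the most abundant member in every group and moved opposite to the receptors. It lies on chromosome 13 (ENSMUSG00000035493.9, plus strand, 56609523 to 56639562). The libraries held 377, 382 and 384 CPM in WT UT, 344, 333 and 339 CPM in KO UT, 2147, 2094 and 2040.5 CPM in WT LPS, and 2794, 2885 and 2791 CPM in KO LPS. No groups overlapped. LPS raised Tgfbi 5.49-fold in WT (log2 fold change 2.46, SE 0.046, adjusted p = 1.90e-21) and 8.33-fold in KO (3.06, SE 0.047, adjusted p = 8.30e-23). The effects differed by 0.60 (SE 0.062, adjusted p = 1.99e-06), and by 0.45 with the small RNA covariate (adjusted p = 0.0582). KO was therefore 0.17 below WT in UT cells (SE 0.044, adjusted p = 0.00644) and 0.43 above it after LPS (SE 0.044, adjusted p = 1.18e-06), in the same direction in all 3 batches of each treatment. The UT difference was -0.07 with the small RNA covariate (adjusted p = 0.753).

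**Figure D3:**
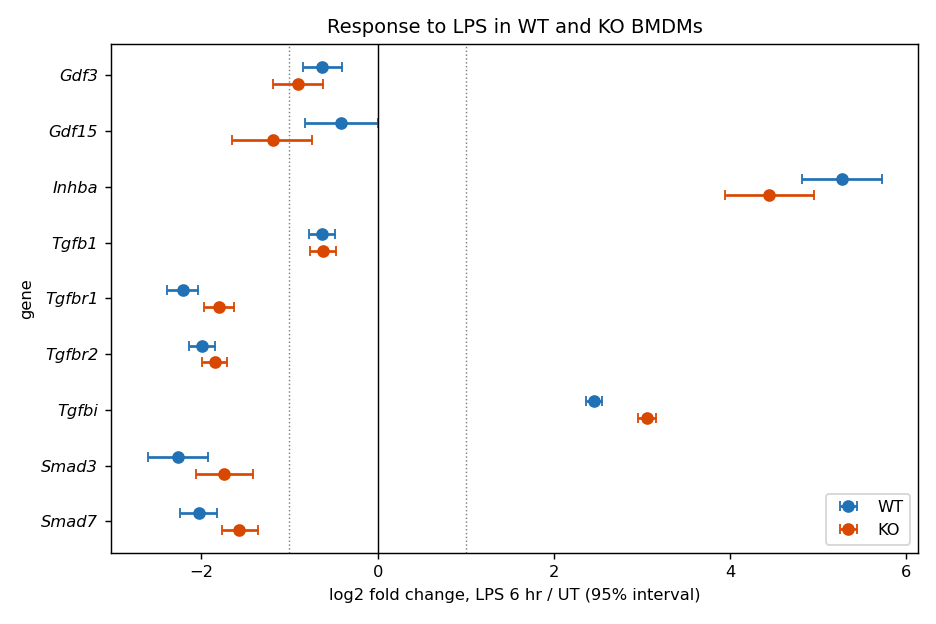
Log2 fold change of LPS 6 hr over UT in WT (blue) and KO (orange) BMDMs, with 95% intervals; dotted lines mark the fold minimum. Inhba and Tgfbi rose and Tgfbr1, Tgfbr2, Smad3 and Smad7 fell in both genotypes, by 2.46 or more and by 1.57 or more on the log2 scale.

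The LPS effect was tested against genotype for the members other than Gdf3 as the difference between the effect in KO and that in WT. With edgeR 0 of these 8 members passed both criteria, against 0.522% of all genes called higher and 1.64% lower (110 and 198 genes with RLE scaling, 81 and 254 with TMM scaling). DESeq2 also called 0, and 5 members had an unadjusted p below 0.05. At any fold change 3 members passed, Tgfbr1, Tgfbi and Smad7, all with the more positive LPS effect in KO, against 7.32% of all genes higher and 9.50% lower.

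Per kilobase of exon (RPKM from the scaled CPM), Tgfbi was highest in all groups, at 101 ± 0.917 in WT UT and 749 ± 14.2 in KO LPS (SD, n = 3). In WT UT cells it was followed by Tgfbr1 (33.5 ± 1.16), Tgfb1 (16.5 ± 0.822) and Tgfbr2 (14.6 ± 0.343). Smad7 (5.06 ± 0.178) and Gdf3 (4.8 ± 0.182) overlapped, and Gdf15 (2.52 ± 0.297), Smad3 (1.44 ± 0.107) and Inhba (0.0493 ± 0.0180) came last. In WT LPS cells the order below Tgfbi was Tgfb1 (10.7 ± 0.881), Tgfbr1 (7.21 ± 1.11), Tgfbr2 (3.65 ± 0.425) and Gdf3 (3.11 ± 0.107), and Inhba (1.94 ± 0.0431) stood beside Gdf15 (1.91 ± 0.363). In KO LPS cells Tgfb1 (9.80 ± 1.01) and Tgfbr1 (9.14 ± 0.161) were not apart, and Inhba, Gdf15 and Gdf3 shared a level of 0.896 to 0.955.

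A wider list of 104 pathway genes held 61 that could be tested. The study selected 2 of these, Acta2 and Ccn2, on the difference between KO and WT after LPS in these libraries, so they are left out of the counts for it. Of the other 59 genes 5 were called after LPS, all higher in KO, against 0.586% of all genes called higher, and in UT cells 2 of the 61, also higher, against 1.02%. The median log2 fold change was 0.12 over the 59 after LPS and -0.03 over the 61 in UT cells, against -0.01 and 0.00 over all genes. Of 29 other ligand genes only 5 could be tested and 0 were called between genotypes by edgeR, with 1 at an unadjusted p below 0.05 after LPS and 0 in UT cells. In WT cells LPS lowered Tgfb3, from 3.70, 3.31 and 3.40 CPM to 0, 0.135 and 0.0471 CPM, and Bmp2, from 2.27, 2.78 and 1.62 CPM to 0, 0.0449 and 0.189 CPM. Both are ligands, and their levels after LPS rest on a few counts a library.

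Of 18 other receptor and co-receptor genes 11 were tested. In WT, LPS called 2 of them higher and 1 lower, against 19.1% and 18.7% of all genes. Acvr1b, the type I receptor for activin, rose 5.54-fold (log2 fold change 2.47, SE 0.064, adjusted p = 4.81e-19), from 24.0 to 28.5 CPM up to 143 to 151 CPM, while Acvr2b, a type II activin receptor, fell by 1.39 (SE 0.304, adjusted p = 0.000322). Between genotypes, endoglin (Eng), a co-receptor, was lower in KO after LPS by 0.27 (adjusted p = 0.0202) and in UT cells by 0.34 (adjusted p = 0.00270). Acvrl1, a type I receptor for bone morphogenetic proteins, was higher in KO after LPS by 0.25 (adjusted p = 0.0174). Bambi, a decoy receptor without a kinase, was higher in KO in UT cells by 0.72 (SE 0.107, adjusted p = 3.14e-05).

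Of 18 Smads and their partners 15 were tested and 0 were called by edgeR between genotypes after LPS, with 7 at an unadjusted p below 0.05. At an adjusted p below 0.05 and any fold change 2 were higher and 1 lower in KO, against 7.78% and 6.54% of all genes. Smad1, which transmits the signal of bone morphogenetic proteins, was higher by 0.27 (adjusted p = 0.0321), and Smurf2, a ubiquitin ligase that acts on Smads and receptors, by 0.24 (adjusted p = 0.0453). In UT cells the co-repressor genes Ski and Skil were both lower in KO by 0.31 (adjusted p = 0.00120 and 0.000942). LPS lowered Ski in WT by 1.85 (SE 0.073, adjusted p = 9.77e-16) and Zfyve9, a scaffold that brings Smads to the receptor, by 1.22 (adjusted p = 0.000134). Not all of these genes fell with LPS. Smad2, which transmits the same signal as Smad3, rose by 0.79 in WT (SE 0.063, adjusted p = 2.27e-10) and by 0.77 in KO (SE 0.063, adjusted p = 3.48e-10). For LPS in WT 1 gene of the 15 was called higher and 2 lower, against 19.1% and 18.7% of all genes.

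Of 12 genes of latency and activation 10 were tested. Itgb8, the integrin subunit that activates latent TGF-beta with Itgav, had the largest LPS response, from 0.444, 0.530 and 0.340 CPM in WT UT to 443, 358 and 339.6 CPM in WT LPS (log2 fold change 9.75, SE 0.135, adjusted p = 1.42e-23). In KO it reached 364, 341 and 366 CPM after LPS, and the genotype difference was -0.09 (95% interval -0.25 to 0.07, adjusted p = 0.478). Fbn1, the matrix scaffold for latent complexes, rose by 3.01 in WT (SE 0.156, adjusted p = 1.26e-13). Ltbp2, a latent TGF-beta binding protein family gene, was higher in KO in UT cells by 0.90 (SE 0.158, adjusted p = 0.000205) and after LPS by 0.64 (SE 0.131, adjusted p = 0.00243). Furin, the protease that processes TGF-beta precursors, was lower in KO after LPS by 0.28 (adjusted p = 0.00397), and Nrros, which anchors latent TGF-beta on macrophages, was higher in KO in UT cells by 0.17 (adjusted p = 0.0231).

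**Figure D4:**
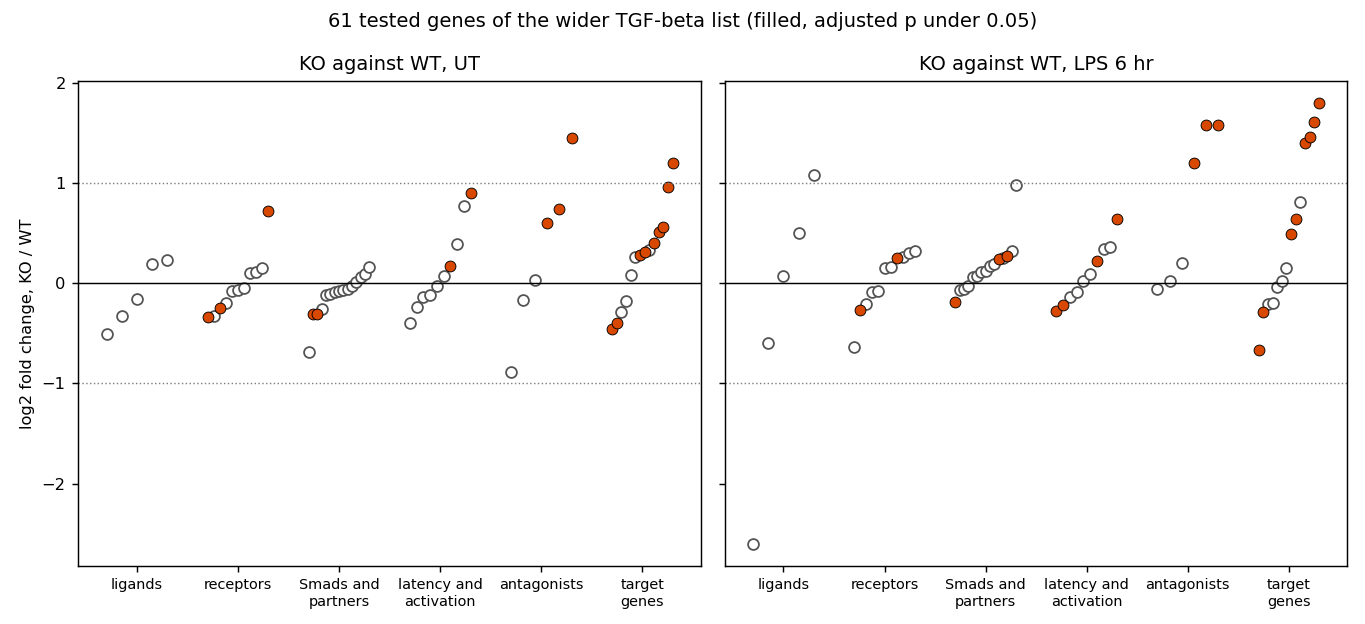
Log2 fold change of KO over WT for the 61 tested genes of the wider list by role, in UT cells (left) and after LPS (right), with filled points for an adjusted p below 0.05 and dotted lines at the fold minimum. The filled points above 1 after LPS are 3 secreted antagonists and 4 target genes, of which Acta2 and Ccn2 were selected by the study on that difference.

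Of 13 secreted antagonists 6 were tested and 3 were called after LPS, all higher in KO, against 0.586% of all genes. Grem1, an antagonist of bone morphogenetic proteins, stood at 1.86, 1.53 and 0.990 CPM in WT LPS and at 3.79, 4.73 and 4.79 CPM in KO LPS (log2 fold change 1.58, SE 0.221, adjusted p = 5.76e-05). Dcn, a proteoglycan that binds TGF-beta, stood at 1.08, 0.673 and 0.613 CPM in WT LPS and at 2.38, 2.21 and 2.60 CPM in KO LPS (1.58, SE 0.431, adjusted p = 0.0181). Fstl1, a follistatin-like gene, was higher in KO by 1.20 after LPS (SE 0.146, adjusted p = 1.20e-05) and by 0.74 in UT cells (SE 0.138, adjusted p = 0.000358). Follistatin (Fst), which binds activin, rose with LPS by 4.62 in WT (SE 0.434, adjusted p = 3.47e-09), and its genotype difference after LPS was -0.06 (95% interval -0.71 to 0.58, adjusted p = 0.919). Twsg1, a modulator of bone morphogenetic proteins, rose by 0.26 in WT (adjusted p = 0.0123).

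All 14 textbook target genes were tested. Without Acta2 and Ccn2, 2 of the other 12 were called after LPS, both higher in KO, against 0.586% of all genes, and at any fold change 4 were higher and 2 lower, against 7.78% and 6.54%. The lower ones were the transcription factor genes Bhlhe40 (-0.67, adjusted p = 0.000113) and Junb (-0.29, adjusted p = 0.0204). Acta2, the smooth muscle actin gene, stood at 2.76, 2.87 and 3.35 CPM in WT LPS and at 9.54, 10.9 and 10.8 CPM in KO LPS (log2 fold change 1.80, SE 0.144). Tagln, an actin-binding protein gene, was higher in KO by 1.61 after LPS (SE 0.297, adjusted p = 0.000959) and by 1.20 in UT cells (SE 0.263, adjusted p = 0.00168). The collagen gene Col1a1 was higher by 1.40 (SE 0.416, adjusted p = 0.0290), on few counts. The WT LPS libraries held 10, 8 and 3 counts of it and the KO LPS libraries 22, 21 and 20. Ccn2, a matricellular gene, stood 1.46 higher in KO after LPS (SE 0.162), and both it and Acta2 were also higher in UT cells, which did not enter their selection, by 0.51 (adjusted p = 0.0149) and 0.96 (adjusted p = 1.47e-05). Id1, a target of bone morphogenetic proteins, rose by 2.07 in WT (SE 0.086, adjusted p = 2.61e-15), and its genotype difference after LPS was 0.15 (95% interval -0.02 to 0.31, adjusted p = 0.234).

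Several of these antagonist and target genes are also expressed by stromal cells, and Col1a1 stood in the stromal marker list of 7 genes too, of which 5 could be tested. After LPS 3 of them, Col1a1, Col1a2 and Col3a1, were higher in KO, by 1.40, 1.19 and 1.49, while Pdgfrb was at -0.01 (adjusted p = 0.968) and Pdgfra at 0.63 (adjusted p = 0.515), and Lum and Thy1 were at or near 0 in all libraries. In UT cells Pdgfra was higher in KO by 1.45 (SE 0.511, adjusted p = 0.0435), where the WT libraries held 10, 5 and 8 counts and the KO libraries 8, 16 and 28. The summed level of the list was 21.4 to 23.0 CPM in WT LPS and 24.7 to 26.6 CPM in KO LPS, and 4.48 to 5.08 and 4.35 to 5.56 CPM in WT UT and KO UT. Most of it after LPS was Pdgfrb, and the other 6 genes summed to 1.51 to 3.24 CPM in WT LPS and 4.92 to 6.02 CPM in KO LPS. The part of stromal cells in the higher antagonist and target levels was not tested. With the small RNA covariate 2 pathway genes in place of 7 passed both criteria after LPS, with Acta2 and Ccn2 among the 7. Calls over all genes fell as well, to 48 higher and 59 lower in place of 91 and 103.

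**Figure D5:**
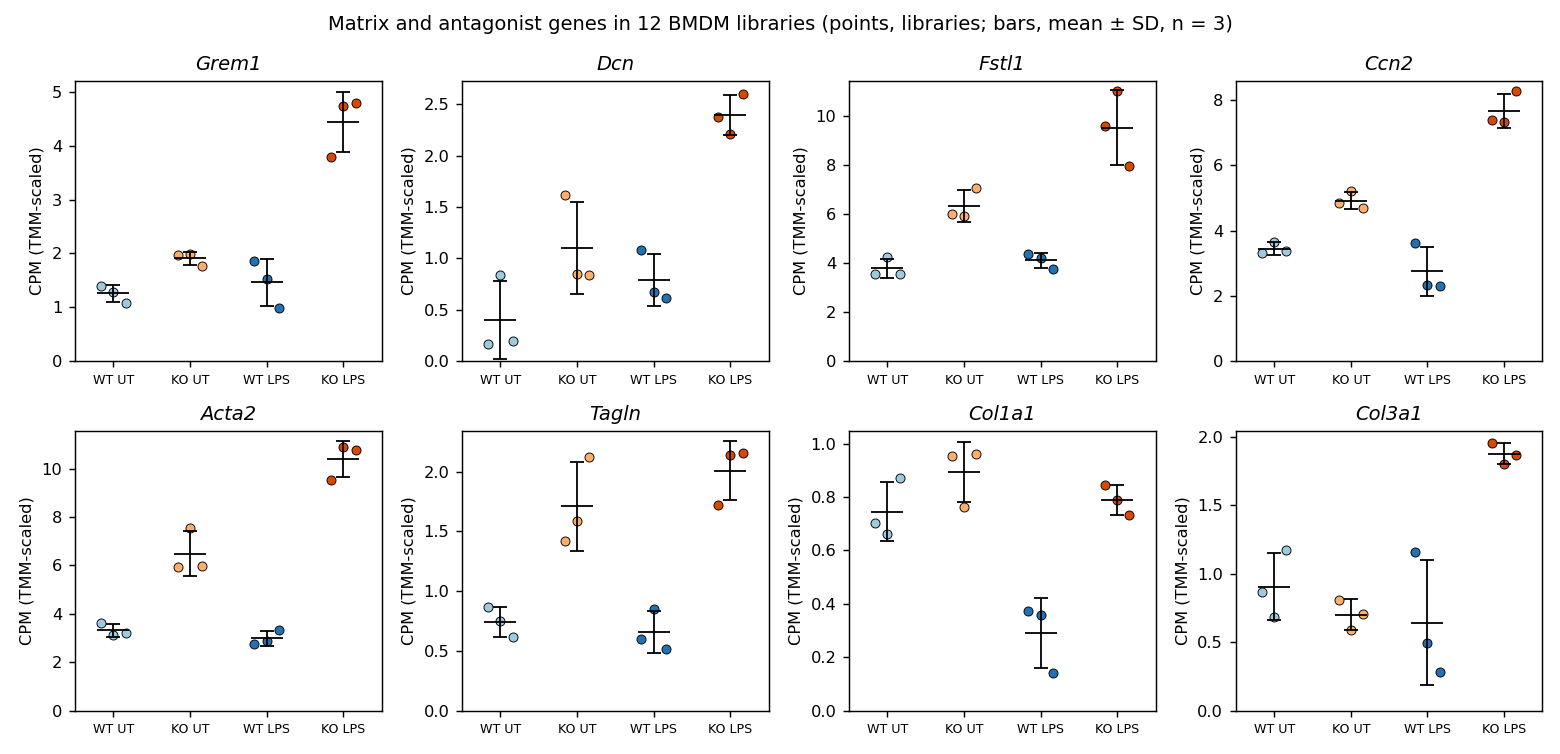
CPM (TMM-scaled) in the 12 libraries of the 7 pathway genes past both criteria after LPS, with Acta2 and Ccn2 selected by the study on that difference, and of the collagen gene Col3a1, with points for libraries and bars for mean ± SD (n = 3). In all 8 panels the KO LPS libraries lay above the WT LPS libraries, at levels of at most 11 CPM.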

How the data were processed

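Per the labels and the methods of the study, the authors aligned reads to GRCm38 with HISAT2 2.1.0 and counted them per gene with featureCounts 2.0.0. The deposited table holds these raw counts for 12 libraries. The annotation release, strand setting and handling of multi-mapping reads are not given in the sources used here, so near-identical or overlapping genes are uncertain. Symbols came from GENCODE M21, which matched 48144 of 48526 identifiers. The unmatched 382 held 0.122% of counts.

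Counts were tested with edgeR 4.0.16 (R 4.3.3), quasi-likelihood, TMM scaling, 1 model of 4 group means without covariates, filterByExpr (minimum count 10, total 15), and Benjamini-Hochberg adjustment over 15523 genes, which held 99.96% of counts. The study used DESeq2; version 1.42.0 was an alternative. Other alternatives were RLE and upper-quartile scaling, other filters, a replicate block, protein-coding genes only, the compared groups only, the small RNA share as a covariate, no fold minimum, and leaving out each library. Log2 CPM used a prior count of 2. The script was tested on simulated data. Intervals are 95% intervals of the fitted log2 fold change, and they and the depth cover no variation beyond these libraries. Batch and replicate numbers coincide in the labels, which pairs libraries of 1 number; over 18 same-batch pairs, deviations from group means correlated at -0.0631 to 0.0373, and 0 pairs exceeded 0.1. Replicates differed beyond counting noise (chi-square of at least 3.81 per degree of freedom). Figures were drawn with matplotlib.

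The members and gene lists were chosen with earlier results of these data known. Genes that the study selected on KO against WT after LPS in these libraries (Gdf3, Tnf, Pira2, Acta2 and Ccn2 among those named) carry no test there or in the interaction, and Gdf3 none in its LPS effects. The study's list was matched by symbol only, so an entry for Gm14548 under another symbol could be missed. Gm14548 carries no test there either. Named beside the members and Tnf were, for each role of the wider list, up to 2 genes of largest absolute log2 fold change among those with an adjusted p below 0.05 and a mean of at least 1 CPM, for KO against WT in each treatment and for LPS in WT, and the 5 genes most correlated with Gdf3. Ccn2, Col1a1, Col1a2, Col3a1, Pdgfra, Pdgfrb, Kdr, Pecam1, Cdh5, Tek, Emcn, Lyz2, Csf1r, Junb, Bhlhe40, Smad2, Lum, Thy1, Ly6g and S100a9 were named after their values were seen. The values of 1 gene that this rule names are not reported here.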

Additional observations from a re-analysis of the deposited data

Results flagged for a closer look

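The LPS effect differed between KO and WT at an adjusted p below 0.05 (edgeR's quasi-likelihood test of the interaction) for 3 of the 8 members other than Gdf3. Among the other named pathway genes, with Acta2 and Ccn2 left out, it did so for Skil, Grem1 and Junb. The LPS effect in KO minus that in WT was 0.41 on the log2 scale for Tgfbr1, 0.60 for Tgfbi and 0.46 for Smad7 (adjusted p = 0.0159, 1.99e-06 and 0.0296). It was 0.48 for Skil, 0.98 for Grem1 and, in the other direction, -0.60 for Junb (adjusted p = 0.000898, 0.0351 and 0.000999). It was 0.84 for Acta2 and 0.95 for Ccn2. These are descriptions only, since the study selected both genes on the difference between KO and WT after LPS that enters these values. With the small RNA covariate this difference between LPS effects changed sign for Tgfbr1 and did not pass the adjusted test for Tgfbi. For Smad7 the adjusted p was 0.0501 to 0.1 in 7 of the 12 fits that each left out 1 library. For Tgfbi, KO was the lower genotype in all 3 batches of UT cells and the higher in all 3 after LPS. Skil, a co-repressor of Smads, was 0.31 lower in KO in UT cells, and its difference after LPS was 0.17 and did not pass the test (adjusted p = 0.0901).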

How the results depend on the processing

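Of 720 recomputed log2 fold changes of the 9 members, 693 kept their direction and were called or not called as before, 8 lost and 1 gained a call, and 18 changed sign. An uncalled difference could still cross the adjusted p of 0.05 alone, as the DESeq2 values of Tgfb1, Gdf15 and Smad7 did. Counts of members and list genes for KO against WT after LPS and the interaction given here include Gdf3, and Acta2 and Ccn2, which the study selected on that difference, and nothing is read from those. Without a filter on low counts the count of members after LPS was 1 in place of 3, with Gdf15 at -0.98 and Inhba at -0.99. Without the fold minimum 6, 3 and 3 members passed for KO against WT after LPS, in UT cells and for the interaction. Of the wider list 20, 19 and 12 genes passed for these comparisons, and 43 and 48 for LPS in WT and LPS in KO. Over all genes 7.78% and 6.54% passed higher and lower after LPS, 14.1% and 9.69% in UT cells, and 7.32% and 9.50% for the interaction. The share of all genes passing at any fold change is not given for LPS in WT and LPS in KO. The counts of 43 and 48 therefore do not set the list apart from all genes. With the fold minimum, the small RNA covariate gave 2 list genes in place of 7 after LPS, 1 in place of 2 in UT cells, 16 in place of 26 for LPS in KO and 1 in place of 0 for the interaction. Over all genes it gave 48 higher and 59 lower in place of 91 and 103 after LPS, and 44 and 82 in place of 159 and 124 in UT cells. For LPS in KO it gave 2183 and 2150 in place of 2741 and 3000, and for the interaction 40 and 35 in place of 81 and 254. The interaction of the list, with 0 called by edgeR and 23 at an unadjusted p below 0.05, gave 3 with DESeq2, 2 with RLE scaling, 2 without the filter and 0 to 2 when 1 library was left out, and the UT count ranged from 1 to 4 (1 without WT UT replicate 3 and 4 without KO UT replicate 3). With the covariate the sign changed for Tgfbr1 after LPS (-0.00), for Inhba, Tgfbr1 and Smad3 in UT cells (0.02, 0.64 and 0.28), and in the interaction for Gdf15 (0.69), Tgfb1 (-0.17), Tgfbr1 (-0.64), Tgfbr2 (-0.54) and Smad3 (-0.06); the covariate moves with the groups, and the cause was not tested. Leaving out 1 library turned Inhba in UT cells (-0.63 to 0.15, with 0.09 without KO UT replicate 1) and the interaction of Tgfb1 (-0.08 to 0.07, with -0.05, -0.03, -0.01 and -0.00 below 0 beside the lowest). That interaction was also -0.01 at a mean CPM of at least 1 and -0.03 with protein-coding genes only. Upper-quartile scaling shifted the median LPS effect of all genes by -0.18 in both genotypes and took Gdf3 in KO to -1.09. The replicate block changed no call of a member or list count (3 members and 7 list genes after LPS). Counting noise limits Inhba in UT libraries, at 5 to 21 counts.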
